A study of Mus musculus with 4 samples.

Results

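Iron storage and transport genes were examined in macrophages grown from mouse bone marrow (bone marrow-derived macrophages, BMDMs). They were 10 of the 16375 genes listed with a value, and were chosen by symbol: Fth1, Ftl1, Ncoa4, Slc40a1, Tfrc, Slc11a1, Slc11a2, Slc48a1, Aco1 and Ireb2. All 10 were present in every library. The study compared wild-type mice (WT) with mice lacking the long non-coding RNA lncLy6c (LNCKO), and asked how the short-chain fatty acid butyrate acts on their macrophages. RNA was sequenced from 4 groups with 1 library each. WT control and LNCKO control cells received no butyrate, and WT butyrate and LNCKO butyrate cells were kept with 500 µM butyrate for 24 h. Per the methods, the marrow cells of all 4 groups were cultured with M-CSF, and the LNCKO strain was made on C57BL/6J by Cas9 cuts on either side of the gene. No row named lncLy6c was found, so the deletion was not checked here. Since each group was a single library, no test could be run and no spread between replicates is known, and every comparison below is a comparison of libraries.

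Macrophages take up the iron of old red blood cells and return it to the blood, so they handle more iron than most cells. Iron enters bound to transferrin through the transferrin receptor, is carried across endosomal and phagosomal membranes by divalent metal transporters or as heme, is stored inside shells of ferritin heavy and light chains, and leaves through ferroportin. When iron is scarce, 2 RNA-binding proteins, the iron regulatory proteins, bind a hairpin called the iron-responsive element (IRE). Binding in the 5′ untranslated region (UTR) blocks translation, as for ferritin and ferroportin, and binding in the 3′ UTR protects the RNA from decay, as for the transferrin receptor. A block of translation does not show in RNA levels, whereas protection from decay acts on the RNA itself.

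The hairpins are shown because they lie before the coding sequence in some of the 10 genes and after it in another. They were searched for in GENCODE M21 transcripts as windows of 29 bases with a bulged C, 5 paired bases of upper stem around a 6-base loop CAGTGN whose last base is not G, and at least 4 of 6 paired bases of lower stem, on the transcript strand only. Of 21901 genes with a protein-coding transcript, 35 (0.16%) held such a window, among them 4 of the 10 iron genes, and the transferrin receptor gene Tfrc held 4 windows. The windows follow 5′ to 3′ with the loop in capitals, on build GRCm38.
Fth1, 5′ UTR, chr19:9982732-9982760, plus strand: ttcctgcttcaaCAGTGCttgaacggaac
Ftl1, 5′ UTR, chr7:45459779-45459807, minus strand: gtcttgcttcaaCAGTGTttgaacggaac
Slc40a1, 5′ UTR, chr1:45925465-45925493, minus strand: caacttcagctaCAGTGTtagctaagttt
Tfrc, 3′ UTR, chr16:32631219-32631247, plus strand: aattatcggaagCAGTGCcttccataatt
Tfrc, 3′ UTR, chr16:32631598-32631626, plus strand: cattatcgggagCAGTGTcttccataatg
Tfrc, 3′ UTR, chr16:32631663-32631691, plus strand: ctatatcggagaCAGTGAtctccatatgt
Tfrc, 3′ UTR, chr16:32631710-32631738, plus strand: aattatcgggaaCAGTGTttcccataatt
The windows of the ferritin genes Fth1 and Ftl1 share the upper stem around the loop, and Slc40a1 has another stem around a loop of the same letters as in Ftl1. The search did not return a window in the other 6 genes, which says only that these letters and pairs were not found there.

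Values are FPKM, that is fragments per kilobase and per 1000000 fragments of a library. The kilobase here is that of the whole gene with its introns, so that long genes have small values. Library totals recovered from the values ranged from 53363944 to 65521713 fragments. A change is given as log2 of the ratio of FPKM + 0.1, and a gene was called higher or lower when it was at least 1.2-fold apart on that scale. Plain FPKM ratios are given with a 95% exact counting interval (Clopper-Pearson), which covers counting error only and not the difference between cultures. The background is 6809 genes whose mean FPKM reached 1. Of the 10 iron genes, 9 reached that mean and Aco1, with a mean of 0.732, did not. The counts and medians below cover all 10. Among the other facts of these libraries, 4 Y-linked genes summed to 0.136 and 0.0657 FPKM in WT control and WT butyrate and to 10.3 and 11.5 FPKM in LNCKO control and LNCKO butyrate, so the sex of the cells and the genotype cannot be told apart.

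The largest differences were in the ferritin light chain gene Ftl1 and in Slc40a1, which encodes ferroportin, and both were lowest in WT butyrate. Slc40a1 differed 1.61-fold between its highest and its lowest library, and Ftl1 1.28-fold. Slc11a1 and Slc48a1 followed with 1.24-fold and 1.197-fold. Both were higher in the 2 LNCKO libraries than in the WT libraries, as were Slc40a1 and, by a small margin, Tfrc. The share of background genes with this order was not counted, so the order is not known to be particular to these genes. The ferritin heavy chain gene Fth1 differed 1.15-fold. Ncoa4, Tfrc, Slc11a2, Aco1 and Ireb2 stayed within 1.07-fold to 1.132-fold over the 4 libraries.

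**Figure D1:**
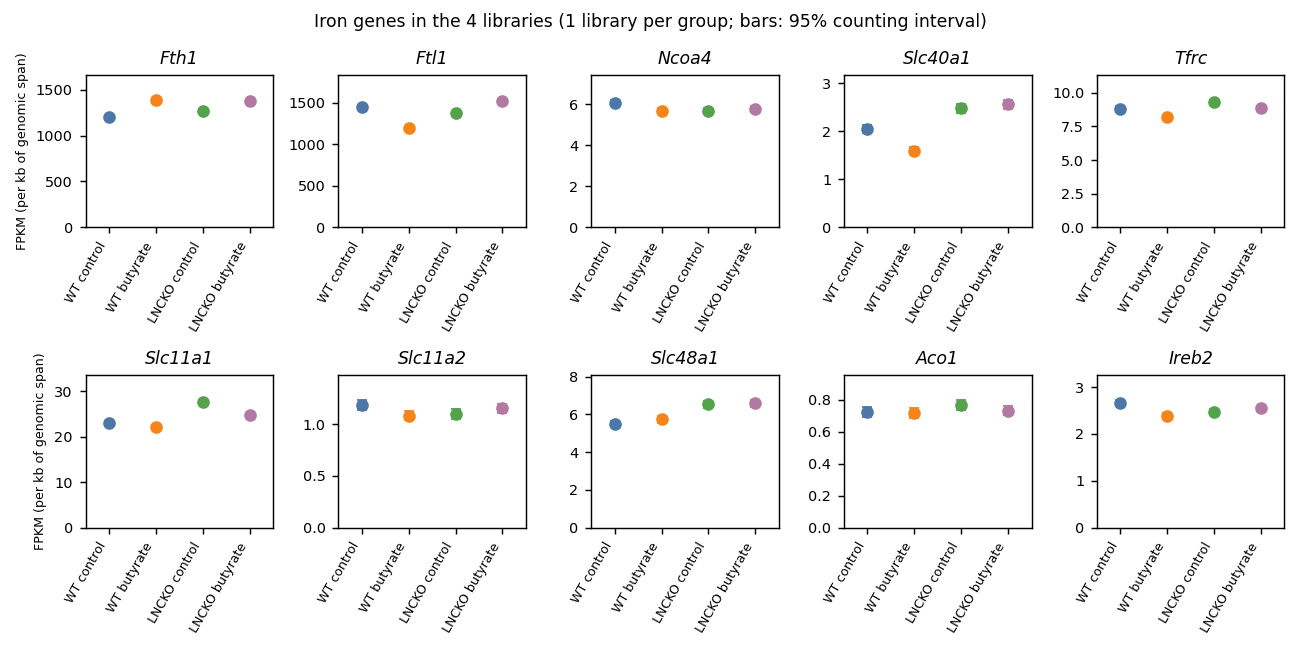
FPKM of the 10 iron genes (vertical axes from 0, one scale per gene) in the 4 libraries, 1 point per library with its 95% counting interval, which is mostly smaller than the point. Slc40a1 and Ftl1 are lowest in WT butyrate, at 1.59 and 1193 FPKM, while Fth1 is lowest in WT control, at 1209 FPKM.

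Fth1 encodes the ferritin heavy chain, which oxidizes iron as it enters the shell. The gene (ENSMUSG00000024661) lies at chr19:9980598-9985098 on the plus strand of GRCm38. WT cells had 1209 FPKM without butyrate and 1385 with it, and LNCKO cells 1264 and 1378. Both libraries with butyrate were above both without, an order whose share among the background genes was not counted. The butyrate library stood 1.15-fold above its control in WT (interval 1.14 to 1.15) and 1.09-fold in LNCKO (interval 1.08 to 1.10), and neither reached 1.2-fold. Between genotypes the log2 change was 0.06 without butyrate and -0.01 with it, and the second became 0.04 when libraries were rescaled to a common FPKM sum.

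Ftl1 encodes the ferritin light chain, which helps iron to mineralize inside the shell. The gene (ENSMUSG00000050708) lies at chr7:45457944-45459884 on the minus strand, and it overlaps Gm22133 on the same strand and Gm10252 on the other, while the use of strand in counting is not given in the sources used here. FPKM in WT was 1443 without butyrate against 1193 with it, and in LNCKO 1382 against 1526. WT butyrate was the lowest and LNCKO butyrate the highest. In WT butyrate Ftl1 was 1.21-fold below its control (interval 1.201 to 1.22) and in LNCKO butyrate 1.10-fold above it (interval 1.10 to 1.11), so the 2 genotypes moved in opposite directions. The change in WT minus that in LNCKO was -0.42 on the log2 scale. Without butyrate LNCKO and WT were close, at -0.06 on the log2 scale, whereas with butyrate LNCKO was 1.28-fold above WT (interval 1.27 to 1.29).

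The ratio of heavy to light chain fragments was highest in WT butyrate. The ratio of Fth1 to Ftl1 fragments does not depend on how libraries are scaled. It was 1.94 in WT without butyrate and 2.69 with it, and 2.12 and 2.09 in LNCKO. The counting interval of WT butyrate was 2.68 to 2.71, and those of the other 3 libraries spanned 1.93 to 2.13. With so many fragments none of the intervals overlapped another, so such a gap is not particular to WT butyrate. How often other pairs of genes shift as much was not counted. Butyrate against control multiplied the ratio by 1.39 in WT (interval 1.37 to 1.40) and by 0.987 in LNCKO (interval 0.979 to 0.995). In WT the 2 genes together made up 0.824% of all fragments without butyrate and 0.855% with it, and in LNCKO 0.837% and 0.916%. The summed share was therefore highest in LNCKO butyrate, and the WT butyrate library differed more in the balance of the chains than in their sum.

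Reads of Ftl1 can be shared with near-identical copies. Of 5 genes whose transcripts matched Ftl1 at 95% or more over at least 300 bases, 1 was listed, a gene at chr13:74399694-74407346 on the plus strand that the file calls Ftl1-ps2 and GENCODE M21 calls Ftl1-ps1 (ENSMUSG00000062382). Its transcript was 99.6% identical to that of Ftl1 over 910 bases, so how fragments were split between the loci is uncertain. The copy had 170 FPKM in WT without butyrate and 140 with it, and 175 and 186 in LNCKO, and it held 31.7, 31.7, 33.3 and 32.4% of the fragments of both loci in the same order. Summed over both loci, light chain fragments with butyrate were 1.21-fold below the control in WT and 1.09-fold above it in LNCKO, close to Ftl1 alone. Fth1 fragments per fragment of both light chain loci numbered 1.33 and 1.84 in WT without and with butyrate, and 1.42 and 1.41 in LNCKO.

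**Figure D2:**
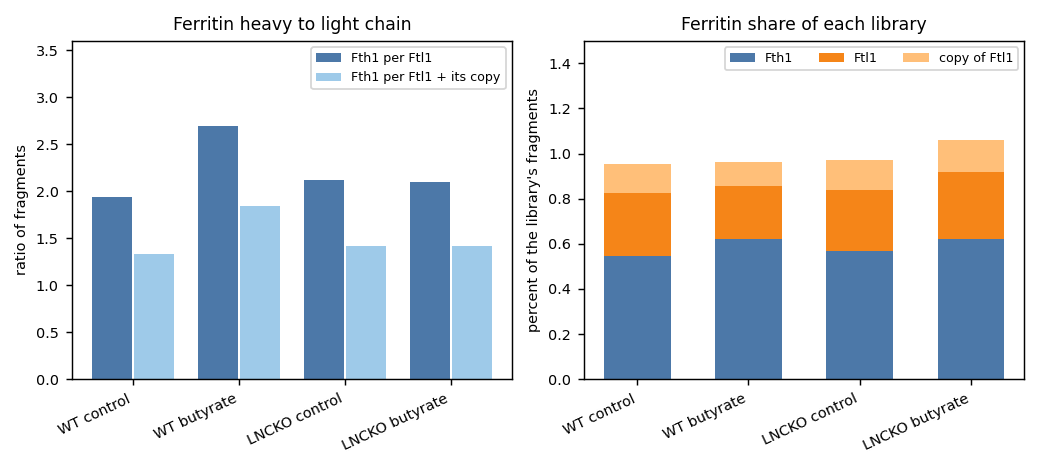
Left, Fth1 fragments per Ftl1 fragment and per fragment of Ftl1 and its copy in each library (bars from 0). Right, the percent of each library's fragments on Fth1, Ftl1 and the copy, stacked. The ratio to Ftl1 is 2.69 in WT butyrate and 1.94 to 2.12 in the other 3 libraries, and the stacked share is highest in LNCKO butyrate, at 1.06%.

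Ncoa4 encodes the receptor that delivers ferritin to lysosomes so that its iron can be released. The gene (ENSMUSG00000056234) lies at chr14:32159865-32179855 on the plus strand. Without and with butyrate, WT held 6.07 and 5.69 FPKM, and LNCKO 5.70 and 5.79 FPKM. WT control stood slightly above the other 3, and the butyrate change was -0.09 on the log2 scale in WT and 0.02 in LNCKO. A processed pseudogene, Gm6768, is 99.9% identical to Ncoa4 over 1878 bases and was not listed, so the split of reads between them is uncertain.

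Slc40a1 encodes ferroportin, the cell's exporter of iron. The gene (ENSMUSG00000025993) lies at chr1:45908068-45926523 on the minus strand. WT cells had 2.04 FPKM without butyrate and 1.59 with it, and LNCKO cells 2.47 and 2.56, from 1736 to 3091 fragments per library. Both LNCKO libraries were above both WT libraries, an order not counted over the background genes, and WT butyrate was the lowest. Butyrate against control gave a 1.28-fold lower value in WT (interval 1.203 to 1.37) and a ratio of 1.03 in LNCKO (interval 0.980 to 1.09), and the change in WT minus that in LNCKO was -0.39 on the log2 scale. LNCKO was 1.21-fold above WT without butyrate (interval 1.15 to 1.29) and 1.61-fold above it with butyrate (interval 1.52 to 1.71). The latter, 0.65 on the log2 scale, ranked 78 from the top among the 6809 background genes.

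Tfrc encodes the transferrin receptor, and its RNA carries the 4 hairpins in its 3′ UTR shown above. The gene (ENSMUSG00000022797) lies at chr16:32608920-32632794 on the plus strand. FPKM in WT was 8.82 without butyrate against 8.21 with it, and in LNCKO 9.29 against 8.84. Both LNCKO libraries were above both WT libraries, with LNCKO butyrate only just above WT control. This order too was not counted over the background genes. Both butyrate libraries were slightly below their controls, by -0.10 on the log2 scale in WT and -0.07 in LNCKO. Dividing cells and red cell precursors use much transferrin iron, so their markers are given here. The sum of 8 genes of dividing cells moved in the same order as Tfrc in its extremes, at 96.6 FPKM in WT without butyrate and 87.9 with it, and 101 and 96.6 in LNCKO. That sum does not stand for each gene, since Mki67 was highest in WT control, Birc5 was highest in LNCKO butyrate and Mcm6 was lowest in WT control. Of 10 erythroid markers 9 were listed, and they summed to 6.196, 6.89, 22.9 and 64.8 FPKM in the same order of libraries, almost wholly hemoglobin genes, while Slc4a1 was at 0 in all 4. The part of either in the Tfrc values was not tested, and in RNA from whole cultures fewer cells of a type and less RNA per cell cannot be told apart.

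Slc11a1 encodes the divalent metal transporter of macrophage phagosomes (NRAMP1). The gene (ENSMUSG00000026177) lies at chr1:74375195-74386062 on the plus strand. Without and with butyrate, WT held 23.1 and 22.2 FPKM, and LNCKO 27.6 and 24.7 FPKM. Both LNCKO libraries were above both WT libraries, an order not counted over the background genes. LNCKO was 1.196-fold above WT without butyrate (interval 1.17 to 1.22), which is 0.26 on the log2 scale and just short of the call, and 1.11-fold above it with butyrate. Butyrate against control gave -0.06 on the log2 scale in WT and -0.16 in LNCKO.

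Slc11a2 encodes the divalent metal transporter of endosomes (DMT1). The gene (ENSMUSG00000023030) lies at chr15:100387898-100425072 on the minus strand with Gm5475 on the other. WT cells had 1.19 FPKM without butyrate and 1.09 with it, and LNCKO cells 1.10 and 1.16. These values differed by 1.09-fold at most, with butyrate changes of -0.12 in WT and 0.07 in LNCKO on the log2 scale. Transcripts of this gene end in different 3′ UTRs, which values per gene do not separate.

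Slc48a1 encodes a transporter that carries heme out of the phagosome and lysosome. The gene (ENSMUSG00000081534) lies at chr15:97778520-97792692 on the plus strand and overlaps Hdac7 on the other. FPKM in WT was 5.49 without butyrate against 5.73 with it, and in LNCKO 6.54 against 6.58. As for Slc11a1, Slc40a1 and Tfrc, both LNCKO libraries were above both WT libraries, an order not counted over the background genes. LNCKO was above WT by 1.19-fold without butyrate (interval 1.14 to 1.24) and by 1.15-fold with it (interval 1.11 to 1.19). Butyrate changed Slc48a1 by 0.06 in WT and 0.01 in LNCKO on the log2 scale, and the second was -0.01 after rescaling to a common sum.

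Aco1 and Ireb2 encode the iron regulatory proteins that bind the hairpins, and Aco1 is also the aconitase of the cytosol. Aco1 (ENSMUSG00000028405) lies at chr4:40143081-40198338 on the plus strand, and its FPKM was 0.722 in WT without butyrate and 0.715 with it, and 0.763 and 0.729 in LNCKO. Ireb2 (ENSMUSG00000032293) lies at chr9:54863789-54912530 on the plus strand, and its FPKM was 2.66 in WT without butyrate and 2.38 with it, and 2.46 and 2.55 in LNCKO. Aco1 was nearly level over the 4 libraries, with butyrate changes of -0.01 in WT, which was 0.03 with libraries scaled by their median ratio, and of -0.06 in LNCKO. Ireb2 was lowest in WT butyrate, with changes of -0.15 in WT and 0.05 in LNCKO.

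Butyrate against control was then read over the whole set. In WT no iron gene was called higher, against 6.77% of the background genes, and 2 of 10, Ftl1 and Slc40a1, were called lower, against 10.5%. The median log2 change of the 10 was -0.10, beside -0.05 over the background, with 8 below 0 and 2, Fth1 and Slc48a1, above. In LNCKO no iron gene was called in either direction, against 2.69% higher and 2.34% lower in the background, and the median was 0.03 beside -0.02. With 10 genes, 1 call moves such a share by 10 percentage points. Ftl1, the called gene nearest to the limit in WT, was 1.21-fold lower on the scale of FPKM + 0.1, and when libraries were scaled by their median ratio only Slc40a1 was called, and with a pseudocount of 1 FPKM only Ftl1. That scaling also turned the split of the background in WT from 461 higher and 714 lower to 624 higher and 476 lower.

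**Figure D3:**
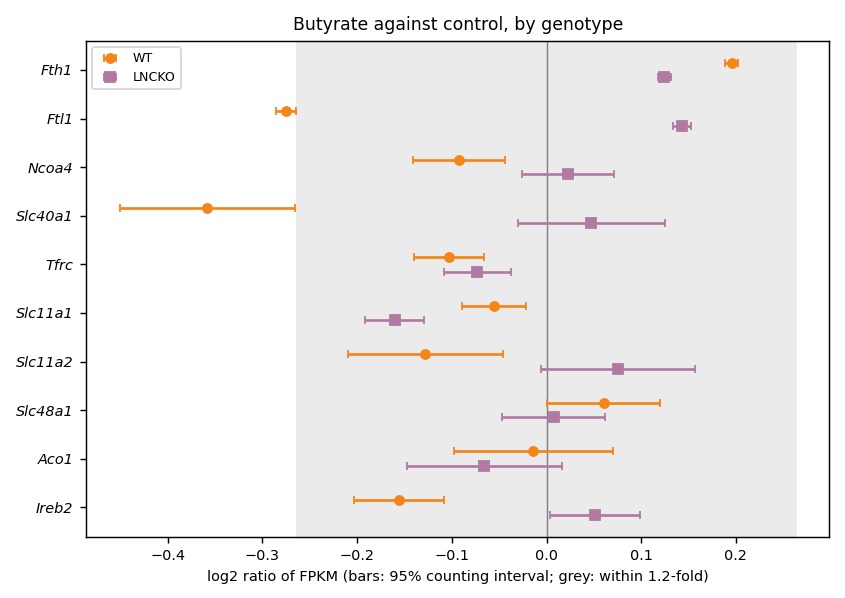
Butyrate against control for the 10 iron genes as the log2 ratio of FPKM without a pseudocount (horizontal axis), with circles for WT, squares for LNCKO and 95% counting intervals as bars. Grey marks ratios within 1.2-fold. Ftl1 and Slc40a1 lie to the left of the grey band in WT and inside it in LNCKO, where their FPKM ratios were 1.10 and 1.03.

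LNCKO against WT was read in the same way. Without butyrate 1 of 10 iron genes, Slc40a1, was called higher, against 3.99% of the background, and none was called lower, against 2.95%. Slc40a1 was just inside the limit at 1.204-fold on the scale of FPKM + 0.1, with Slc11a1 at 1.195-fold and Slc48a1 at 1.187-fold just outside it, and it was not called under median-ratio scaling or with a pseudocount of 1 FPKM. With butyrate Slc40a1 and Ftl1 were called higher, 2 of 10 against 10.7% of the background, and none was called lower, against 6.23%. The median of the 10 was 0.07 without butyrate beside 0.02 in the background, and 0.10 with butyrate beside 0.06. With butyrate 9 of the 10 were above 0, but Ncoa4 at 0.02 and Aco1 at 0.03 went to -0.02 under median-ratio scaling, which also turned the background split from 728 higher and 424 lower to 527 higher and 565 lower.

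**Figure D4:**
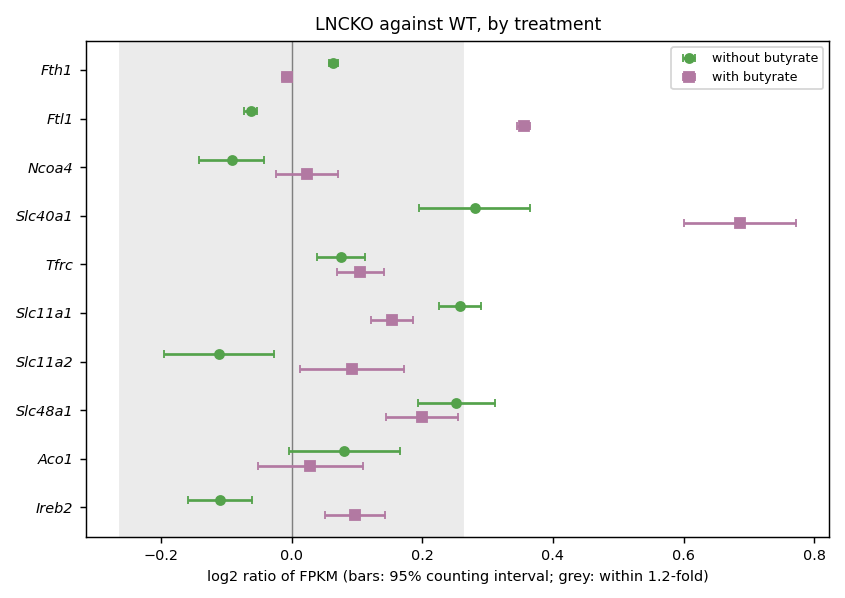
LNCKO against WT for the 10 iron genes as the log2 ratio of FPKM without a pseudocount (horizontal axis), with circles for libraries without butyrate, squares for libraries with it and 95% counting intervals as bars. Grey marks ratios within 1.2-fold. Slc40a1 lies farthest to the right with butyrate, at 1.61-fold, and Ftl1 leaves the band only with butyrate, at 1.28-fold.

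The change with butyrate in WT minus that in LNCKO was below -0.26 for Ftl1 and Slc40a1, called lower, 2 of 10 against 11.9% of the background. No iron gene was called higher in this difference, against 8.42%. The other 8 ranged from -0.20 for Ireb2 to 0.10 for Slc11a1, and the median of the 10 was -0.07 beside -0.04 in the background. The comparisons share libraries. Each library enters 3 of the 5, so a value particular to 1 library, such as the low Ftl1 and Slc40a1 of WT butyrate, appears in 3 of them.

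To set the genes beside each other, fragments were divided by the summed length of a gene's exons in GENCODE M21 in place of its genomic span. On this scale the mean over the 4 libraries was 2008 for Ftl1, 1698 for Fth1, 71.6 for Slc11a1, 33.9 for Tfrc and 31.3 for Slc48a1, followed by 12.9 for Ireb2, 12.4 for Ncoa4, 8.999 for Aco1, 6.62 for Slc11a2 and 4.44 for Slc40a1. Ferritin chains stood at least 20.2-fold above Slc11a1, the next gene, in every library. Ftl1 was above Fth1 in 3 of 4 libraries and below it in WT butyrate, while each other neighbor kept its place in all 4. Tfrc and Slc48a1 were 1.01-fold to 1.203-fold apart and Ireb2 and Ncoa4 1.01-fold to 1.06-fold, so these pairs had no order beyond the range of their own values over the libraries. The order depends on the length used, and per length of the principal transcript Fth1, at 6342, was above Ftl1, at 2779. Whether fragments in introns were counted is not given in the sources used here. If they were, genes with long introns stand too high on both scales.

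Another 72 genes of iron and heme handling were listed by role, of which 71 had a value and 40 reached a mean FPKM of 1. With butyrate in WT, 6 of the 40 were called higher (15%) and 5 lower (12.5%), beside the 6.77% and 10.5% given above. The lower genes were Hmox1, Hfe, Cp, Isca1 and Mafk. The higher genes were Alas1, Steap4, Lcn2, Fbxl5, Iba57 and Hif1a. Scaling by the median ratio gave 9 higher and 3 lower, rescaling to a common sum 4 higher and 9 lower, and a pseudocount of 1 FPKM 3 higher (Steap4, Lcn2 and Hif1a) and 2 lower (Hmox1 and Hfe). In LNCKO 2 were called higher (5%), Steap4 and Bola2, and 1 lower (2.5%), Ltf, beside 2.69% and 2.34% of the background. The WT change minus the LNCKO change was called higher for 8 of the 40 (20%) and lower for 6 (15%), beside 8.42% and 11.9% of the background.

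Where 4 values of a gene follow without labels, they stand for WT without butyrate, WT with it, LNCKO without it and LNCKO with it. Among the genes of heme handling, 10 of 19 reached that mean, and with butyrate in WT 1 was called higher and 1 lower. Hmox1, the oxygenase that frees iron from heme, had 33.9 FPKM in WT without butyrate and 21.5 with it, and 42.8 and 46.2 in LNCKO. Like Slc40a1, it was lowest in WT butyrate and higher in both LNCKO libraries than in both WT libraries. The share of background genes with this order was not counted. The butyrate changes of Hmox1 were -0.66 in WT and 0.11 in LNCKO on the log2 scale. Blvrb, a biliverdin reductase, had 3.35, 2.77, 4.10 and 3.70 FPKM, and was called higher in LNCKO than in WT both without and with butyrate, as was Hmox1. Alas1, the first enzyme of heme synthesis, was highest in WT butyrate, with 16.3, 19.8, 18.0 and 17.3 FPKM. Spic, a transcription factor of red pulp macrophages, was low and below the mean of 1, at 0.180, 0.224, 0.520 and 0.533 FPKM.

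In the transferrin cycle 5 of 12 genes reached that mean. Steap4, a ferrireductase, had 0.857 FPKM in WT without butyrate and 1.85 with it, and 0.621 and 0.915 in LNCKO. It was called higher with butyrate in both genotypes and lower in LNCKO than in WT under both conditions. With a pseudocount of 1 FPKM it was not called with butyrate in LNCKO, nor in LNCKO control against WT control. Hfe, whose product binds the transferrin receptor, had 7.10, 4.99, 5.93 and 5.61 FPKM and was called lower with butyrate in WT and not in LNCKO, and its change in WT minus that in LNCKO was -0.42. Trf, which encodes transferrin itself, had 9.22, 7.94, 9.27 and 9.97 FPKM and was called higher in LNCKO than in WT with butyrate.

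Of the 10 genes of export and the hepcidin axis 3 reached the mean. Cp, the oxidase that works with ferroportin, had 1.31 FPKM in WT without butyrate and 0.933 with it, and 1.24 and 1.10 in LNCKO. Like Slc40a1 it was lowest in WT butyrate, and the share of background genes lowest there was not counted. Hamp, the hepcidin gene, was listed at 0 in all 4. Lcn2 and Ltf encode proteins that bind bacterial siderophores and iron, respectively, and both are made by neutrophils. Lcn2 had 110, 148, 92.3 and 88.0 FPKM and Ltf 22.1, 19.5, 18.4 and 15.1, while 8 neutrophil markers summed to 2624, 3077, 2262 and 2177 FPKM in the same order. With butyrate in WT, 5 of these 8 markers were called higher and 2, Camp and Ngp, lower, so the sum does not stand for each of them. Their part in the Lcn2 and Ltf values was not tested.

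Among 6 genes of iron regulatory protein control and iron chaperones that reached the mean, Fbxl5, which marks the Ireb2 product for degradation when iron is ample, had 2.05 FPKM in WT without butyrate and 2.501 with it, and 2.08 and 2.33 in LNCKO. It was highest in WT butyrate. Ireb2 was lowest there but was not called, and a link between these RNAs was not tested. Pcbp1 and Pcbp2, chaperones that hand iron to ferritin, were not called in any comparison. In the mitochondrial list of 11 genes that reached the mean, Isca1 was called lower and Iba57 higher with butyrate in WT. Of 5 regulators of transcription that reached it, Hif1a was highest in WT butyrate, with 5.92, 7.47, 5.76 and 5.84 FPKM, and Mafk lowest, whereas Nfe2l2 and Bach1, which turn Hmox1 and ferritin transcription up and down, respectively, were not called in any comparison.

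**Figure D5:**
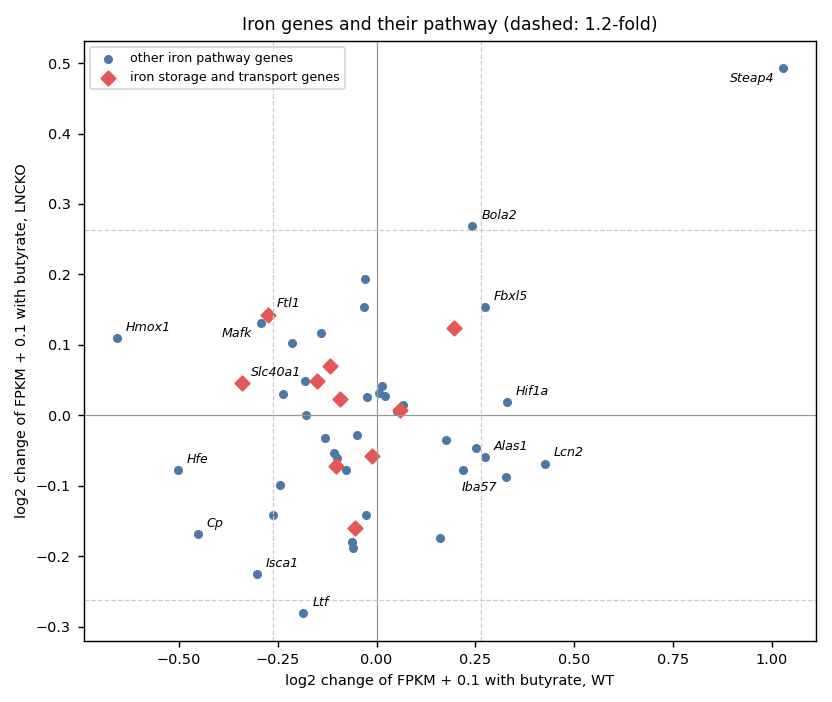
Change with butyrate in WT (horizontal axis) against that in LNCKO (vertical axis), each as the log2 ratio of FPKM + 0.1, for 9 iron genes that reached a mean FPKM of 1 and Aco1 (diamonds) and the 40 other iron pathway genes that reached it (circles). Dashed lines mark 1.2-fold, and genes past it in either direction are named. Hmox1 lies farthest to the left, at -0.66 in WT and 0.11 in LNCKO, and Steap4 farthest to the upper right.

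The summed markers of macrophages, B cells, neutrophils and dividing cells differed 1.132-fold to 1.41-fold between the highest and the lowest library, and those of erythroid and stromal cells differed more. The 10 macrophage markers were all listed and summed to 871 FPKM in WT without butyrate and 965 with it, and 853 and 870 in LNCKO. Markers of the labeled cell type were thus found in all 4. So were neutrophil markers, at 2624, 3077, 2262 and 2177 FPKM in the same order, and B cell markers, so the values may not be those of macrophages alone. C1qa and C1qb were called higher and Cd14 lower with butyrate in WT. The 7 B cell markers summed to 209, 164, 213 and 216 FPKM and were lowest in WT butyrate, as were Ftl1 and Slc40a1, while the summed neutrophil markers were highest there and Camp and Ngp among them lowest. The 6 stromal markers summed to 9.96, 8.58, 2.76 and 5.67 FPKM. That sum was carried by Col1a1 and Col1a2 and was lower in both LNCKO libraries, whereas Col3a1 was highest in LNCKO butyrate. The part of these cells in the values of the iron genes was not tested.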

How the data were processed

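Total RNA of BMDMs from 4 groups with 1 library each was sequenced. The authors deposited FPKM per gene and library. The sources used here differ on the library kit and platform (per the labels, TruSeq on an Illumina instrument, and per the methods, MGISEQ-2000). The submitters' processing notes name STAR 2.5.0c, Picard 1.126, bedtools 2.17.0, HTSeq 0.6.0, DESeq2 and GRCm38 or mm10, without roles. The names of the LNCKO columns do not spell their condition and were matched to the sample labels through the library names.

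Library totals were searched as the numbers that turn FPKM into whole fragments, given GENCODE M21 gene lengths. Of 16342 genes matched, 98.5% were whole within 0.02 in all 4 libraries on the genomic span, introns included, and 6.99% on the exon length. All 10 iron genes were whole. Dividing by the span makes FPKM of long genes small, so a pseudocount of 0.1 was used. Ratios between libraries of one gene do not depend on its length.

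Changes, counts past 1.2-fold and medians were computed with pandas 2.3.3, numpy 2.4.6 and scipy 1.17.1 under Python 3.11.15, and drawn with matplotlib 3.10.9. Intervals of the ratio of 2 libraries are exact (Clopper-Pearson). The scripts were tested on simulated data with counting noise only and with changes larger than 1.2-fold. That test therefore does not bear on calls near the limit or on the spread between cultures. The genes named are the 10 iron genes, the pathway genes past 1.2-fold or with a role beside an iron gene, and the marker lists. The 10 genes and all lists were chosen with earlier results of these data known. Per the RNA sequencing methods, reads were paired, and no molecular identifiers are named there. Alternatives were a pseudocount of 1 or none, scaling by the median ratio, rescaling to 1000000 per library, a fold of 1.5, and a filter at a mean of 5 or none.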

Additional observations from a re-analysis of the deposited data

Results flagged for a closer look

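For 5 of the 10 iron genes the libraries with butyrate moved in opposite directions in WT and LNCKO, lower in WT and higher in LNCKO. Of the background genes 24.3% did the same, and 19.0% were higher in WT and lower in LNCKO. With 1 library per group and condition these differences were not tested. On the scale of log2 FPKM + 0.1, Ftl1 changed by -0.27 in WT and 0.14 in LNCKO, a difference of -0.42. Slc40a1 changed by -0.34 and 0.05, a difference of -0.39. Ireb2 changed by -0.15 and 0.05, a difference of -0.20. Slc11a2 changed by -0.12 and 0.07, a difference of -0.19, and Ncoa4 by -0.09 and 0.02, a difference of -0.11. In LNCKO the counting interval of the ratio included 1 for Slc40a1, Slc11a2 and Ncoa4, so that for these 3 the higher value was within counting error. Only Ftl1 and Slc40a1 among them passed 1.2-fold in the difference, as did 11.9% of the background genes in the same direction.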

How the results depend on the processing

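Each iron gene, count and median was computed again under the other settings. The count lower with butyrate in WT, 2, was 1 with a pseudocount of 1 FPKM (Ftl1), 1 with median-ratio scaling (Slc40a1) and 0 at 1.5-fold. The count higher in LNCKO control than WT control, 1, was 0 with a pseudocount of 1, 0 with median-ratio scaling, 2 (Slc40a1 and Slc11a1) when rescaled to 1000000, and 0 at 1.5-fold. The count higher in LNCKO butyrate than WT butyrate, 2, was 1 at 1.5-fold (Slc40a1), and the count lower in the difference of changes, 2, was 0. Of the 10 genes ordered by level per exon length, 6 kept their rank on the genomic span and 2 on the principal transcript, a setting chosen after seeing the data. The cause of these moves was not tested. Background calls were fewer with a pseudocount of 1, at 296 higher and 365 lower in place of 461 and 714 with butyrate in WT, and at 107 and 59 in place of 183 and 159 in LNCKO. They were more numerous when rescaled to 1000000, at 1041 and 2390 of 11021 genes in WT and 631 and 814 in LNCKO. With no filter, 5.12% higher and 4.35% lower were called with butyrate in LNCKO and 5.44% lower in LNCKO control against WT control, and with a mean of at least 5, 1.02% were called lower with butyrate in LNCKO, and the other background shares stayed within 1.5 times. The pathway counts in the difference of changes, 8 higher and 6 lower, were 4 and 4 with a pseudocount of 1 and 8 and 4 with median-ratio scaling. Those in LNCKO control against WT control, 4 and 2, were 1 and 0 with a pseudocount of 1 and 3 and 4 with median-ratio scaling. Of 200 values of iron genes under other settings, 164 moved by no more than the margin of their counting interval and 36 by more, and no called gene changed direction. All 20 medians under other settings stayed within 0.1 of the value given. No paired analysis was possible because each group is 1 library, and leaving out a library would empty its group. The least sampled iron gene, Slc40a1, had 1736 fragments in its lowest library, and the spread between cultures is unknown.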

Other observations

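The genes whose pattern over the 4 libraries was most like that of Slc40a1, the iron gene with the widest range, were Pmaip1, Il12a, Rfc3, Dok2 and Fzd7, by the distance between log2 changes from the gene's own mean. The nearest, Pmaip1, had 10.7 FPKM in WT without butyrate and 8.46 with it, and 13.1 and 13.6 in LNCKO, at a distance of 0.02. With 4 libraries many genes can share such an order, and these genes were chosen by the likeness itself.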
